A study of Mus musculus with 12 samples.

Results

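Heat shock proteins and chaperonins were examined in donor T cells from the liver of mice with allogeneic transplants. The set was defined by gene name. It took names that start with Hspa, Hspb, Hspd, Hspe or Hsph, names that start with Dnaj, the Cct2 to Cct8 subunits and Tcp1. Of the 25078 genes in the count table, 81 carried such a name, and 61 of them had 10 or more counts in every library and formed the set. HSP90 genes do not match the rule and were followed as a list beside it. All 61 members also passed the filter on low counts in each of the fits. Among the 20 names left out, 16 had 0 counts in at least 1 library, among them Hspb1 and Hspb8. The names just under the minimum were Dnajc28, with a lowest count of 6, Hspa1b with 4, and Cct6b with 3, and the members just above it were Dnajc6 with 12, Dnajb14 with 26 and Dnajb2 with 28.

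The study asked how STAT3 and PD-1 in donor T cells shape graft-versus-host disease. Recipients were BALB/c mice that had received a lethal dose of radiation. Their grafts combined CD90.2+ T cells with T cell–depleted marrow of WT C57BL/6 mice. The T cell donors, also C57BL/6, were of 3 genotypes, named WT, STAT3-/- and STAT3-/-PD-1-/-. STAT3-/- donors were Stat3 fl/fl mice with CD4-Cre, a transgene that deletes the floxed gene during thymic development of T cells, so both CD4+ and CD8+ T cells carry the deletion. STAT3-/-PD-1-/- donors were in addition deficient for PD-1. The recipients and the bone marrow were WT in all 6 groups, and the ages of the mice are not given in the sources used here. On day 6 after hematopoietic cell transplantation (HCT), donor-type CD4+ and CD8+ T cells were sorted from the liver. Each of the 12 libraries held the cells of 3 recipients, with 2 libraries for each genotype and subset, and CD8+ T cells came from the same liver tissue as CD4+ T cells. No group tested PD-1 deficiency alone. The libraries held 21676125 to 24551477 counts on genes, with a median of 23442480. Members took 0.617% to 0.946% of these counts.

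Chaperones bind unfolded or partly folded proteins and keep them from aggregating. HSP70 proteins work in cycles of ATP binding and hydrolysis, in which J-domain proteins (HSP40, the Dnaj genes) deliver substrates and speed hydrolysis, and HSP110 proteins exchange the nucleotide. TRiC is a ring-shaped chaperonin of the cytosol with a different subunit at each position, and folds actin, tubulin and other proteins. HSP60 with its lid HSP10 does comparable work in the mitochondrial matrix. The endoplasmic reticulum (ER) has its own HSP70, BiP, which also senses unfolded protein there. T cells that enter the cell cycle make large amounts of protein and draw on all of these systems.

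The targeted genes were examined first. Stat3 in CD4+ T cells had 362 and 466 normalized CPM (counts scaled to a common library size) in the WT libraries, 138 and 164 in the STAT3-/- libraries and 157 and 222 in the STAT3-/-PD-1-/- libraries. In CD8+ T cells the values were 396 and 387, 148 and 136, and 154 and 238. Pdcd1, which encodes PD-1, had 55.1 and 26.3 CPM in STAT3-/-PD-1-/- CD4+ and 94 and 66.5 CPM in STAT3-/-PD-1-/- CD8+ T cells, against 242 and 234 CPM in WT CD4+ and 375 and 309.7 CPM in WT CD8+ T cells. Both genes were low where the labels say so, without overlap between WT and deficient libraries, although reads remained. Stat3 fell in STAT3-/-PD-1-/- T cells by 1.13 log2 units in CD4+ and 1.00 in CD8+ T cells against WT (edgeR's quasi-likelihood test, adjusted p = 0.018 and 0.0177). In STAT3-/- T cells the values were -1.46 ± 0.22 and -1.46 ± 0.20, which did not pass the same test (adjusted p = 0.055 and 0.108), so a difference of that size could go uncalled in the comparison of STAT3-/- with WT. The coreceptors matched the labels as well. Cd4 had 1256 to 1888 CPM in the CD4+ libraries and at most 2.78 CPM in the CD8+ libraries.

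RNA of other cells was low. The 10 hepatocyte markers summed to 1.39 to 5.34 CPM per library, with Trf as the most abundant and 2 to 5 of the markers at 0. The 5 B cell markers summed to 1.65 to 14.7 CPM, led by Cd79b, and the 8 macrophage markers to 6.59 to 35.1 CPM, led by Cd68. Neutrophil markers reached at most 1.14 CPM and all 5 erythroid markers were at 0. The endothelial list summed to 111 to 195 CPM, led by Pecam1, which T cells express too. In STAT3-/-PD-1-/- CD8+ T cells Cd68 and Cd79b fell against both other genotypes and Trf rose against STAT3-/-, and the part of these cells in the results was not tested. In bulk libraries, fewer cells of a type and less RNA per cell cannot be told apart.

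Promoter windows show which members carry known control elements. RefSeq windows on build GRCm38.p6, from 250 bases before to 50 bases after each annotated start, were found for 51 of the 61 members, and not for Cct4, Dnajc2, Dnajc5, Dnajc11, Dnajc12, Dnajc18, Dnajc30, Hspa8, Hspa9 or Hspa13. A heat shock element, the site that heat shock factors bind, was searched on both strands as 3 units in which GAA and TTC alternate with NN between them. It was present in Hspd1, Hspe1, Hsph1 and Dnajb6, or 4 of the 51 members (7.84%), and in 0.662% of 27025 genes. The ER stress response element, CCAAT and CCACG with 9 bases between them, stood in Hspa5 and Dnajc3, or 3.92% of the members, and in 0.137% of all genes. The sequences are shown because carriers of the heat shock element had different fold changes, and Hspa5 and Dnajc3 had different gaps between replicates. The matches are in capitals and the sequence is read along the strand of the gene.
Hspd1, chr1:55088054-55088081, minus strand: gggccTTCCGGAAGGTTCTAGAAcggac
Dnajb6, chr5:29735847-29735869, plus strand: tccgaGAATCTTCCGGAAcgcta
Hsph1, chr5:149636283-149636305, minus strand: gcagaTTCTGGAAAGTTCtcctc
Hspa5, chr2:34772020-34772048, plus strand: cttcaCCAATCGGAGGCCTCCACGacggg
Dnajc3, chr14:118937807-118937865, plus strand: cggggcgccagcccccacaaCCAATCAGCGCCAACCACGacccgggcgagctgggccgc
The Hspd1 stretch, an 18-base run that holds 2 overlapping matches, lies in the window of Hspe1 too. The genes are transcribed in opposite directions, and the run is 144 to 127 bases before one annotated start of Hspd1, downstream of its other annotated start, and 89 to 72 bases before that of Hspe1. In Hsph1 the match lies at bases 16 to 28, counted from 1 at one annotated start, and farther downstream of the other annotated start. A STAT-like site, TTCNNNGAA, was found in Cct5, Dnajc7, Dnajc13 and Dnajc27, or 7.84% of the members, against 9.55% of all genes. A 2-unit heat shock element, GAANNTTC or TTCNNGAA, was found in 25.5% of the members and 17% of all genes, and includes the 3-unit matches. The E-box CACGTG was found in 13.7% of the members and 8.09% of all genes. A match describes letters in a window and not a bound site.

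Levels between genes are given as the deposited RPKM, which divide counts by exon length. The mean RPKM of the members over the 12 libraries ranged from 0.473 to 329, with a median of 22.5. Hspa5 (BiP) was the highest at 329 RPKM, followed by Dnajc15 (309 RPKM), a J-domain protein of the mitochondrial inner membrane, and by the TRiC subunits Cct2 (265), Cct5 (225), and Tcp1 (199.6). The lowest were Dnajc6 (0.473 RPKM), the auxilin of neurons, Dnajb2 (0.675), and Hspbap1 (1.13). By family, TRiC had the highest median (161 RPKM, 8 genes), and its subunits ran from 103 to 265 RPKM. Medians were 50.3 RPKM for the 6 HSP70 genes, 32.0 for HSP60 and HSP10, 27.9 for the 3 HSP110 genes and 12 for the 38 J-domain genes. Hspe1, Hspd1 and some others have processed pseudogenes in the annotation (6 for Hspe1, 5 for Hspd1, and 1 each for Cct3, Dnaja1, Dnajc19, Hspa9, and Tcp1). Reads shared with such copies may have been lost, so that these levels may be too low. Annotated overlaps with a gene on the other strand, such as Hspd1 with Hspe1 (96 bases), Cct8 with Usp16, Tcp1 with Acat3, Dnajc1 with Mllt10, and Dnajc19 with Fxr1, are a further limit, since the strand setting of the counting is not stated.

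As compared with WT CD4+ T cells, 5 of the 61 members differed in STAT3-/-PD-1-/- cells (edgeR's quasi-likelihood test, Benjamini-Hochberg adjusted p under 0.05). Mitochondrial Hspd1 and Hspa9 and the histone-binding Dnajc9 rose, and the J-domain genes Dnaja4 and Dnajb14 fell. The share of all 11959 genes tested that passed was 12.9% (7.21% higher and 5.65% lower), so the share of the members, 8.20%, was below the background. As compared with STAT3-/- CD4+ T cells, 6 members rose and 0 fell in STAT3-/-PD-1-/- CD4+ T cells, against 11.1% of all genes (6.05% higher and 5.03% lower). These were Hspa9, Hspd1, Cct3, Tcp1, Cct6a and Hspbp1. The replicate number was taken to pair the CD4+ libraries, by the correlations given with the methods. With that number as a block 13 members passed against WT (background 26%) and 11 against STAT3-/- (background 26%). The block assumes the same shift in all groups. For TRiC the median of replicate 1 minus replicate 2 was 0.26 log2 units in WT and in STAT3-/- CD4+ T cells. It was -0.11 in STAT3-/-PD-1-/- CD4+ T cells, so the assumption did not hold for these subunits. With the block, Tcp1, Cct3, Cct6a, Cct8, Hspe1 and Hspbp1 passed as higher against WT too, and Dnajb5 and Dnajb9 as lower. Against STAT3-/-, Cct7, Cct8 and Hspa4 passed in addition as higher, and Dnajb9 and Dnajc1 as lower. These counts rested on single libraries. No member passed in either comparison when either STAT3-/-PD-1-/- library was left out. Fewer passed against WT without either WT library, and against STAT3-/- without STAT3-/- replicate 2. The number of all genes that passed fell in the same fits too, and the sizes of the losses were not compared.

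As compared with WT CD8+ T cells, 10 members passed in STAT3-/-PD-1-/- CD8+ T cells, 9 higher and 1 lower, against a background of 17.2% of 12002 genes (9.01% higher and 8.21% lower). As compared with STAT3-/- CD8+ T cells, 11 members rose and 1 fell, against a background of 16.8% (8.76% and 8.05%). The shares of the members were 16.4% and 19.7%, close to the background in both. Of the 8 TRiC subunits, 5 rose against WT and 6 against STAT3-/-, while of the 38 J-domain genes 2 passed in each comparison, Dnajc12 as higher and Dnajc1 as lower. No member passed against WT when WT CD8+ replicate 2 or STAT3-/-PD-1-/- CD8+ replicate 2 was left out. The same held against STAT3-/- CD8+ T cells without STAT3-/-PD-1-/- replicate 2. Fewer members passed when any other library of the groups compared was left out. The number of all genes that passed fell in each of these fits too, and the sizes of the losses were not compared. In these fits the lone library of a group is assumed to vary like the other groups.

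**Figure D1:**
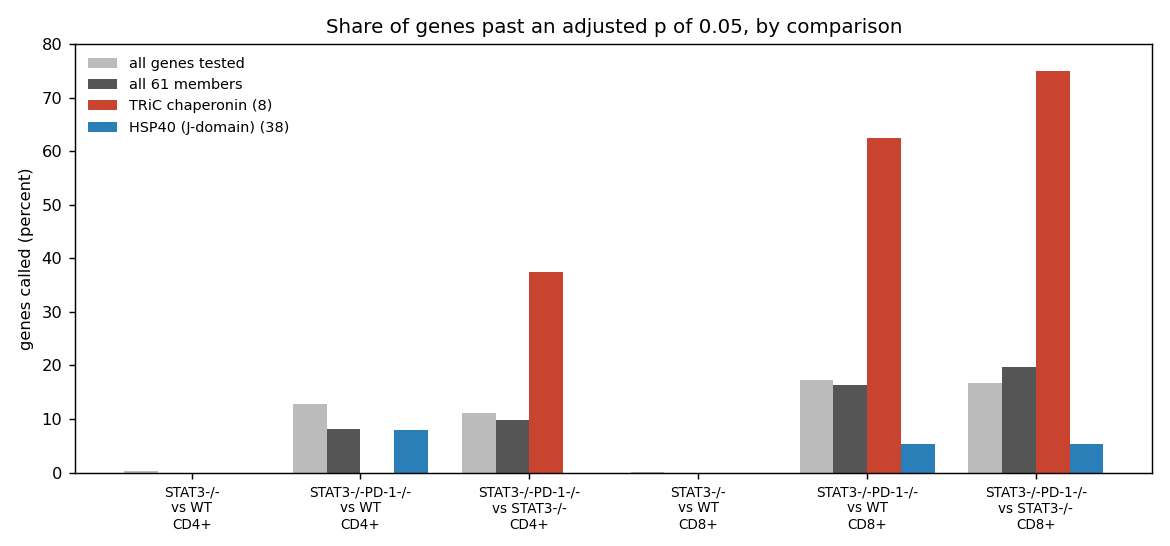
Percent of genes with an adjusted p under 0.05 in each of the 6 comparisons (y axis), for all genes tested, the 61 members, the 8 TRiC subunits and the 38 J-domain (HSP40) genes. For the members the bar reaches 19.7% at most, next to 16.8% for all genes, and in CD8+ T cells the TRiC bar reaches 62.5% against WT and 75% against STAT3-/-.

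The comparison of STAT3-/- with WT T cells gave 0 calls among the members in both subsets (edgeR's quasi-likelihood test), where 0.334% of all genes passed in CD4+ and 0.0583% in CD8+ T cells. At an unadjusted p under 0.05, 5 members passed in CD4+ and 3 in CD8+ T cells, beside 1259 of 11959 and 1315 of 12002 genes. DESeq2 called 1 member in CD4+ T cells, Dnaja4 as lower, and 0 in CD8+ T cells, beside 2.27% and 1.72% of all genes. Members had a median log2 fold change of -0.03 in CD4+ and -0.01 in CD8+ T cells, beside 0.01 and -0.01 for all genes. Of the 8 TRiC subunits 7 had a negative fold change in each subset, from -0.35 to 0.01 in CD4+ and from -0.16 to 0.01 in CD8+ T cells, and none passed the test.

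**Figure D2:**
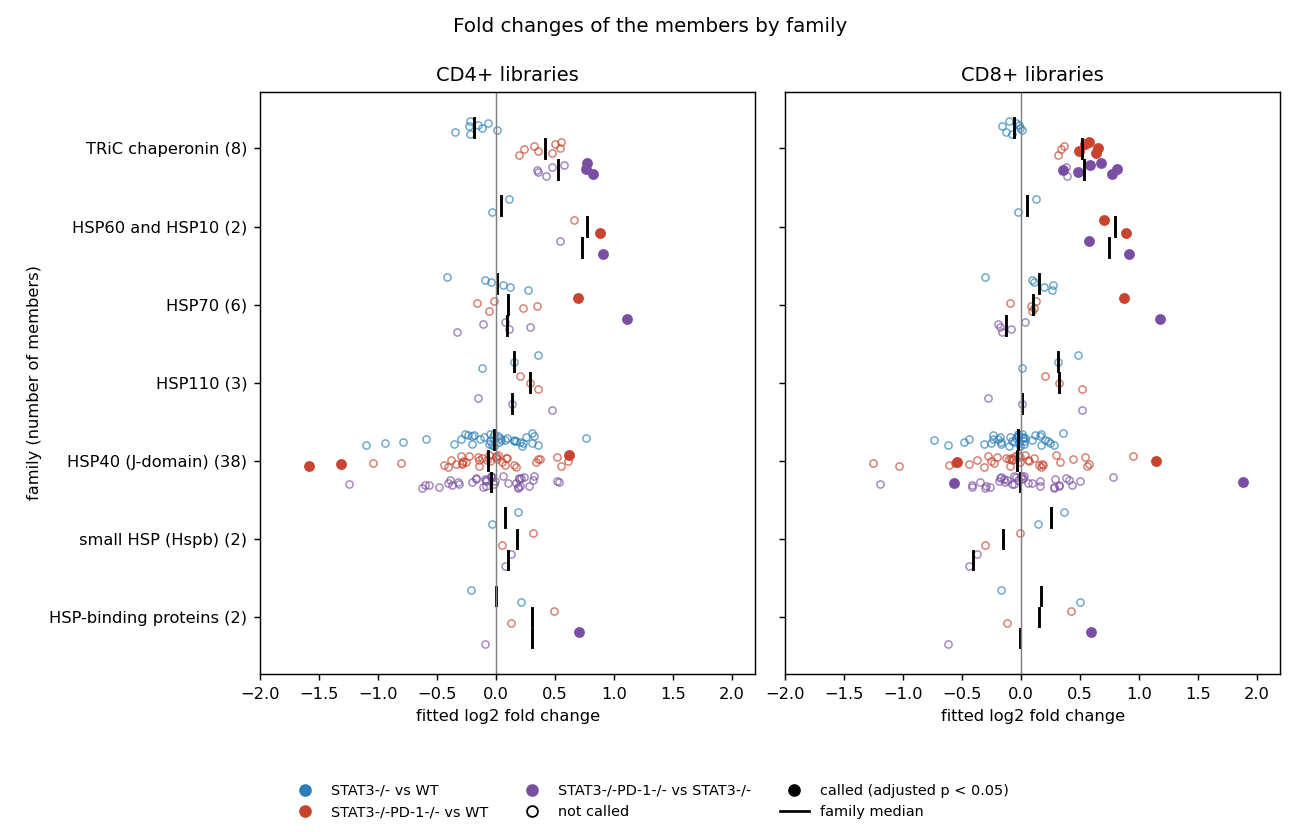
Fitted log2 fold change of every member (x axis), by family (y axis, with the number of genes) and comparison (colour), in CD4+ (left) and CD8+ libraries (right). Filled points passed an adjusted p of 0.05 and black ticks mark family medians. All 8 TRiC points of both STAT3-/-PD-1-/- comparisons lie right of 0, and J-domain genes scatter on both sides of it.

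The subunits of TRiC had positive fold changes in all 4 STAT3-/-PD-1-/- comparisons. Of the 8, 5 rose against WT in CD8+ T cells (17.2% of all genes passed). Against STAT3-/-, 3 rose in CD4+ and 6 in CD8+ T cells (11.1% and 16.8% of all genes passed). With the block, Cct7 and Cct8 passed in addition against STAT3-/- in CD4+ T cells (26% of all genes). Against WT in CD4+ T cells 0 passed, with 5 at an unadjusted p under 0.05 (3438 of all 11959 genes), 2 with DESeq2 (18.1% of all genes) and 4 with the block (26% of all genes). STAT3-/-PD-1-/- libraries stood above those compared without overlap for 7 of the 8 subunits against WT in CD4+ T cells (31% of all genes did so) and for all 8 in the other comparisons (30.8% of all genes against WT in CD8+, and 29.6% and 32.5% against STAT3-/- in CD4+ and CD8+ T cells). Tcp1, the alpha subunit, had 428 and 364 CPM in WT, 373 and 306 in STAT3-/- and 537 and 622 in STAT3-/-PD-1-/- CD4+ libraries. In CD8+ libraries it had 462 and 488, 456 and 429, and 671 and 742 CPM in the same order. Both STAT3-/-PD-1-/- libraries stood above the other 4 of their subset, and WT and STAT3-/- libraries overlapped in CD4+ T cells but not in CD8+ T cells. Against WT, the log2 fold change was 0.57 ± 0.10 (standard error) in CD8+ T cells (edgeR's quasi-likelihood test, adjusted p = 0.0144) and 0.55 ± 0.17 in CD4+ T cells (adjusted p = 0.0712, and 0.0243 with the block). Against STAT3-/-, it was 0.77 ± 0.17 in the CD4+ subset and 0.68 ± 0.10 in the CD8+ subset (adjusted p = 0.0311 and 0.0101).

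Cct6a, the zeta subunit, had 253 and 208 CPM in WT, 219.7 and 174 in STAT3-/- and 324 and 346 in STAT3-/-PD-1-/- CD4+ libraries. The CD8+ libraries had 272 and 250, 249 and 217, and 402 and 418 CPM. The STAT3-/-PD-1-/- libraries again stood apart at the top in each subset. Among the subunits Cct6a had the highest fold change in CD8+ T cells, 0.65 ± 0.11 against WT and 0.82 ± 0.12 against STAT3-/- (edgeR's quasi-likelihood test, adjusted p = 0.0133 and 0.00817). Cct3, the gamma subunit, had 199 and 167 CPM in WT, 153 and 135 in STAT3-/- and 234 and 274 in STAT3-/-PD-1-/- CD4+ libraries, and 212 and 191, 203 and 165, and 289 and 339 in CD8+ libraries. Its CD4+ libraries formed 3 steps without overlap, lowest in STAT3-/-, but the difference of STAT3-/- from WT, -0.35 ± 0.16, did not pass (edgeR's quasi-likelihood test, adjusted p = 0.535).

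Cct8 and Cct4 rose in both CD8+ comparisons, by 0.54 and 0.50 log2 units against WT and by 0.58 and 0.49 against STAT3-/-. Cct5 rose against STAT3-/- in CD8+ T cells, at a log2 fold change of 0.36 ± 0.10 (edgeR's quasi-likelihood test, adjusted p = 0.0496). DESeq2 called Cct5 against WT too. The call against STAT3-/- was lost in 7 of 11 alternatives, among them RLE normalization and each left-out library (adjusted p up to 0.294 with edgeR). Between STAT3-/- and WT, Cct5 differed within replicates 1 and 2 by -0.17 and -0.05 log2 units in CD4+ T cells. The CD8+ differences were 0.0009 and -0.026. Of the 7 subunits with a promoter window, which leaves out Cct4, only Cct5 had a STAT-like site, and its part was not tested. The site lies at chr15:31601901-31601919 on the minus strand and is shown in capitals.
Cct5: ctcggTTCGTGGAAaacgg
For Cct2 and Cct7 the fold changes ran from 0.20 to 0.47 over the 4 STAT3-/-PD-1-/- comparisons, and neither gene passed edgeR's test in any of them. With the block Cct7 passed against STAT3-/- in CD4+ T cells, and DESeq2 called Cct7 there and Cct2 against STAT3-/- in CD8+ T cells. The median of the 8 subunits was 0.42 against WT and 0.52 against STAT3-/- in CD4+ T cells, and 0.52 and 0.54 in CD8+ T cells, where the median of all genes was -0.01 in both CD4+ comparisons and closer to 0 in both CD8+ comparisons. The summed level of the 8 subunits was 1297 and 1074 RPKM in WT, 1140 and 958 in STAT3-/- and 1477 and 1620 in STAT3-/-PD-1-/- CD4+ libraries. In CD8+ libraries the sums were 1337 and 1245, 1312 and 1173, and 1760 and 1873 RPKM. Cct2 was the highest subunit in every library, and Cct7 or Cct3 the lowest, in every genotype. Prefoldin hands actin and tubulin to TRiC. Of the 9 genes of its list, which includes phosducin-like cofactors, 0 passed in any of the 6 comparisons (edgeR's quasi-likelihood test, with at most 1 at an unadjusted p under 0.05), and their median log2 fold change was 0.11 against WT in the CD4+ subset and 0.02 in the CD8+ subset.

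**Figure D3:**
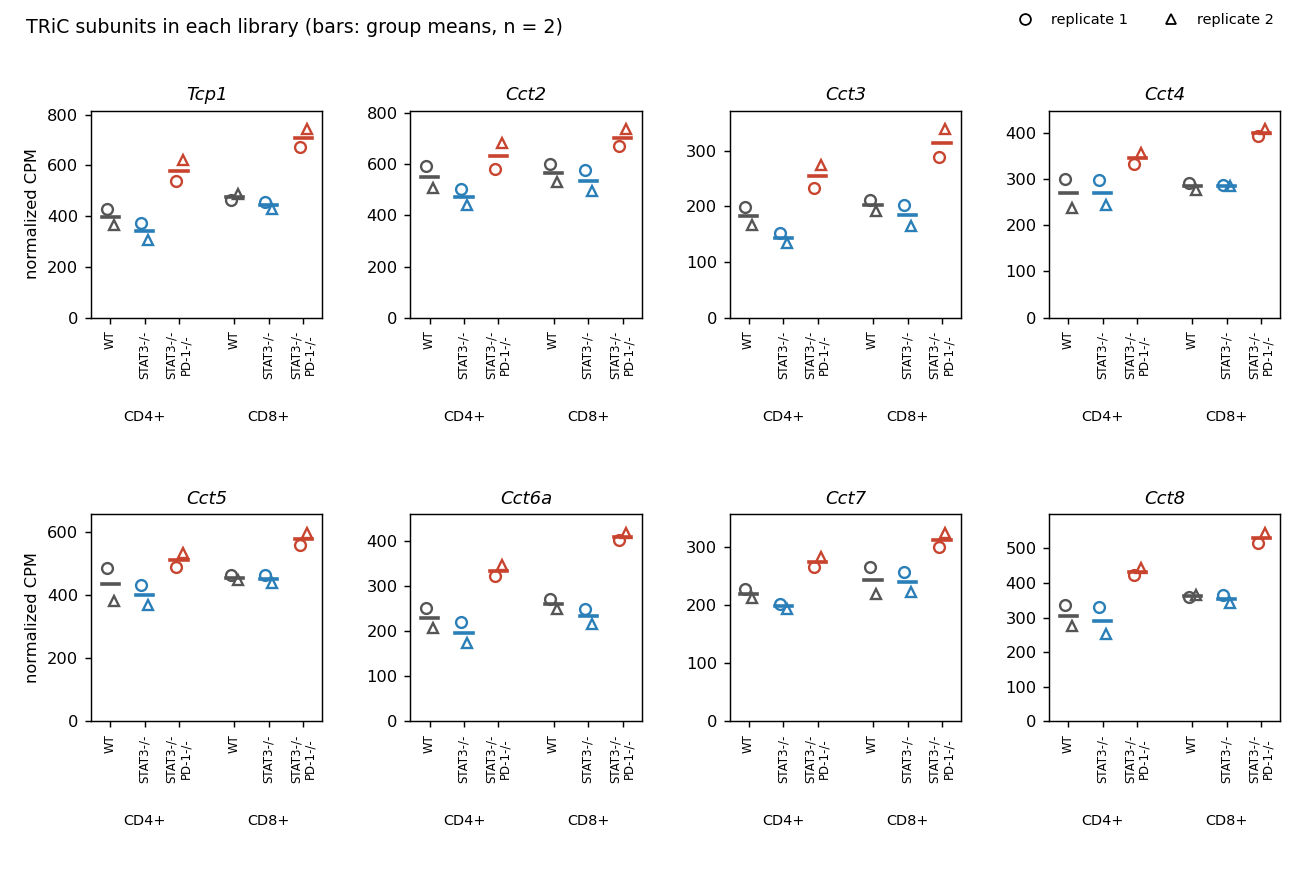
Normalized CPM of the 8 TRiC subunits (y axis, from 0) in each library, by genotype and subset (x axis). Circles are replicate 1, triangles replicate 2 and bars group means. The red STAT3-/-PD-1-/- points are above both other genotypes in all panels except Cct2, where replicate 1 of STAT3-/-PD-1-/- CD4+ T cells (583 CPM) is below WT replicate 1 (594 CPM).

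The mitochondrial matrix chaperones Hspd1 and Hspa9 rose in all 4 comparisons of STAT3-/-PD-1-/- T cells. Hspd1 encodes HSP60. It had 63.8 and 45.7 CPM in WT, 60 and 47.1 in STAT3-/- and 97.4 and 104 in STAT3-/-PD-1-/- CD4+ libraries, and 84 and 63.3, 80.4 and 63.9, and 141 and 131 CPM in CD8+ libraries. WT and STAT3-/- libraries overlapped, and the STAT3-/-PD-1-/- libraries were above both in each subset. The log2 fold change against WT was 0.88 ± 0.21 in the CD4+ subset and 0.89 ± 0.18 in the CD8+ subset (edgeR's quasi-likelihood test, adjusted p = 0.0334 and 0.0182). It was 0.91 ± 0.21 and 0.92 ± 0.18 against STAT3-/- (adjusted p = 0.0345 and 0.0183).

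Hspe1 encodes HSP10, the lid of the HSP60 chamber, and is the divergent neighbour that shares the heat shock element printed above. It had 18.6 and 16.8 CPM in WT, 23.2 and 15 in STAT3-/- and 26.8 and 29 in STAT3-/-PD-1-/- CD4+ libraries. Its CD8+ values were 21.3 and 21.3, 23.8 and 22.8, and 35.2 and 34.2 CPM. Hspe1 rose in CD8+ T cells by 0.70 log2 units against WT and 0.58 against STAT3-/- (edgeR's quasi-likelihood test, adjusted p = 0.0136 and 0.025). In CD4+ T cells the fold change against WT was 0.66 ± 0.23 (adjusted p = 0.106, and 0.0395 with the block). Of the other carriers of that element, Hsph1 had log2 fold changes of 0.20 and 0.20, and Dnajb6 of -0.29 and -0.23, against WT in CD4+ and CD8+ T cells, and neither passed the test in any of the 6 comparisons of genotypes.

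Hspa9, the mitochondrial HSP70 that also pulls proteins through the inner membrane, had the highest fold change of the 6 HSP70 members in each of the 4 STAT3-/-PD-1-/- comparisons. It had 186 and 179 CPM in WT, 151 and 122 in STAT3-/- and 265 and 325 in STAT3-/-PD-1-/- CD4+ libraries. CD8+ libraries had 236 and 196, 199 and 151, and 360.4 and 429 CPM. STAT3-/- CD4+ libraries were the lowest, below WT without overlap, and in CD8+ T cells these groups overlapped. Against STAT3-/-, the log2 fold change was 1.11 ± 0.17 in the CD4+ subset and 1.17 ± 0.18 in the CD8+ subset (edgeR's quasi-likelihood test, adjusted p = 0.0129 and 0.00925). Against WT it was 0.69 ± 0.17 and 0.87 ± 0.17 (adjusted p = 0.0393 and 0.0183).

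The other 5 mitochondrial members did not pass edgeR's test without the block in these comparisons, and DESeq2 called Dnaja3 as higher against WT in CD8+ T cells. Dnaja3, the J-domain partner of Hspa9, had log2 fold changes against WT of 0.55 ± 0.19 in CD4+ and 0.56 ± 0.18 in CD8+ T cells (edgeR's quasi-likelihood test, adjusted p = 0.107 and 0.076). Dnajc15, the most abundant J-domain gene, had -0.14 and -0.38, and also did not pass without the block. Of the 8 mitochondrial members 2 passed in each CD4+ comparison and 3 in each CD8+ comparison of STAT3-/-PD-1-/- T cells, or 25% and 37.5%, where 12.9% (WT) and 11.1% (STAT3-/-) of all genes passed in CD4+ and 17.2% and 16.8% in CD8+ T cells. On the list of 11 other genes of mitochondrial protein quality, 2 rose against WT in CD4+ and 3 in CD8+ T cells, and 1 and 5 against STAT3-/-. These were 18.2% and 27.3% of the list against WT and 9.09% and 45.5% against STAT3-/-, to be read against the same shares of all genes. The protease Lonp1 passed in all 4 of these comparisons, at 0.66 and 0.86 log2 units against WT. Trap1, the HSP90 of mitochondria, had 72.8 and 71 CPM in WT, 82.2 and 79.7 in STAT3-/- and 111 and 116 in STAT3-/-PD-1-/- CD4+ libraries, which did not overlap. It rose against WT by 0.66 log2 units in CD4+ and 0.73 in CD8+ T cells (edgeR's quasi-likelihood test, adjusted p = 0.0213 and 0.012).

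**Figure D4:**
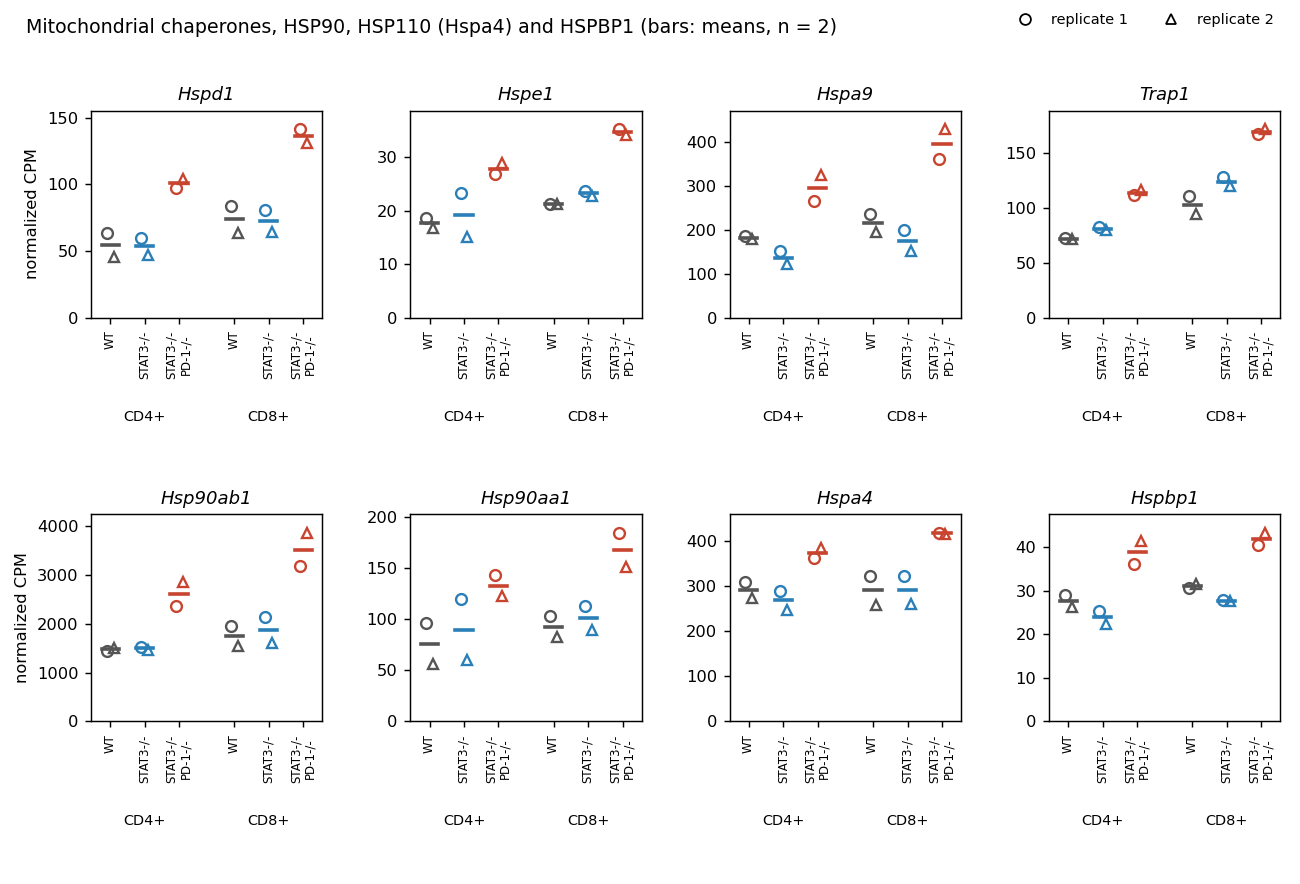
Normalized CPM (y axis, from 0) of mitochondrial Hspd1, Hspe1, Hspa9 and Trap1, of cytosolic Hsp90ab1 and Hsp90aa1, and of Hspa4 and Hspbp1 in each library, by genotype and subset (x axis). Circles are replicate 1, triangles replicate 2 and bars group means. In each panel and subset both STAT3-/-PD-1-/- libraries are above the 4 libraries of the other genotypes, while Hsp90aa1 and Hspd1 also differ between the replicates of WT and STAT3-/- T cells.

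None of the cytosolic HSP70 and HSP110 genes passed edgeR's test in the 6 comparisons of genotypes without the block. DESeq2 called Hspa4 as higher in STAT3-/-PD-1-/- T cells against STAT3-/- in both subsets and against WT in the CD8+ subset. Hspa8 (HSC70), the constitutive HSP70 of the cytosol, had 366 and 286 CPM in WT, 322 and 289 in STAT3-/- and 310.1 and 333 in STAT3-/-PD-1-/- CD4+ libraries, and the 3 genotypes overlapped. Its log2 fold change against WT was -0.02 ± 0.16 in the CD4+ subset and 0.13 ± 0.11 in the CD8+ subset. Hspa14, a ribosome-associated member, and Hspa2 had fold changes between -0.18 and 0.35 in the 4 STAT3-/-PD-1-/- comparisons, and none passed. Of the HSP110 genes, Hspa4 had 323 and 259 CPM in WT, 324 and 262 in STAT3-/- and 418 and 417 in STAT3-/-PD-1-/- CD8+ libraries. Its log2 fold change against WT was 0.52 ± 0.15, at the edge of the threshold (edgeR's quasi-likelihood test, adjusted p = 0.0553). Hspa4l had 0.29 and 0.32 against WT in CD4+ and CD8+ T cells and did not pass. Hspbp1, which releases nucleotide from HSP70, rose against STAT3-/- by 0.70 log2 units in CD4+ and 0.60 in CD8+ T cells (edgeR's quasi-likelihood test, adjusted p = 0.0395 and 0.0206).

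The HSP90 system was followed by a list of 23 chaperones and cochaperones. Against WT, 4 of them rose in CD4+ and 6 in CD8+ T cells of STAT3-/-PD-1-/- donors, against STAT3-/- 4 and 5, and 0 fell. These were 17.4% and 26.1% of the list against WT and 17.4% and 21.7% against STAT3-/-, where 12.9% and 17.2%, and 11.1% and 16.8%, of all genes passed. Hsp90ab1, the constitutive HSP90, had 1446 and 1514 CPM in WT, 1525 and 1464 in STAT3-/- and 2373 and 2854 in STAT3-/-PD-1-/- CD4+ libraries, and 1947 and 1554, 2146 and 1602, and 3178 and 3854 CPM in CD8+ libraries. The log2 fold change against WT was 0.82 ± 0.14 and 1.01 ± 0.18 (edgeR's quasi-likelihood test, adjusted p = 0.0109 and 0.0135). Hsp90aa1, the inducible HSP90, rose in CD8+ T cells by 0.86 log2 units (edgeR's quasi-likelihood test, adjusted p = 0.0204). In CD4+ T cells it had 0.81 ± 0.35 (adjusted p = 0.183, and 0.0113 with the block). The adaptors St13 and Stip1, which link HSP70 to HSP90, rose against WT by 0.62 and 0.57 log2 units in CD4+ and by 0.83 and 0.66 in CD8+ T cells. Bag2, an HSP70 exchange factor, rose against STAT3-/- by 1.30 and 1.23 log2 units.

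The stress-inducible HSP70 genes Hspa1a and Hspa1b are not members, because their counts were too low. Hspa1b had 28 and 6 counts in WT, 189 and 82 in STAT3-/- and 29 and 5 in STAT3-/-PD-1-/- CD4+ libraries. For CD8+ T cells the values were 13 and 4, 160 and 41, and 13 and 35 counts. Hspa1a had 8 and 2, 52 and 19, and 10 and 2 counts in CD4+ and 3 and 1, 60 and 6, and 2 and 16 in CD8+ libraries. STAT3-/- libraries had the highest counts of Hspa1b in each subset, above WT without overlap. The log2 fold change of Hspa1b in STAT3-/- against WT was 3.05 ± 0.86 in the CD4+ subset and 3.54 ± 0.88 in the CD8+ subset, which did not pass (edgeR's quasi-likelihood test, adjusted p = 0.246 and 0.277). The paralogs are near-identical, so reads may have been split between them or lost. Hsf1, the main heat shock factor, had 32.4 to 41.9 CPM over the 12 libraries. On a list of 4 genes for heat shock factors and their binding protein, only Hsf4 passed in a comparison of genotypes, and it fell by 0.82 log2 units in STAT3-/-PD-1-/- against STAT3-/- CD8+ T cells.

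The J-domain genes were the largest family, and members that passed went in both directions. Their median log2 fold change against WT was -0.07 in the CD4+ subset and -0.04 in the CD8+ subset, with a range from -1.58 to 0.62 and from -1.25 to 1.14. Dnaja4, an HSP70 partner of the cytosol, had 14.9 and 14.1 CPM in WT, 6.49 and 7.03 in STAT3-/- and 3.46 and 6.19 in STAT3-/-PD-1-/- CD4+ libraries. CD8+ T cells held 22.2 and 17.9, 13.5 and 12.6, and 6.43 and 13.1 CPM. All STAT3-deficient libraries were below WT in both subsets, and the STAT3-/-PD-1-/- replicates differed widely. Dnaja4 fell by 1.58 log2 units against WT in STAT3-/-PD-1-/- CD4+ T cells (edgeR's quasi-likelihood test, adjusted p = 0.016), and the fold change of STAT3-/- against WT was -1.10 ± 0.29 (adjusted p = 0.226).

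Dnajb14, a membrane J-domain protein of the ER, had 3.98 and 6.12 CPM in WT, 2.32 and 2.94 in STAT3-/- and 1.77 and 2.29 in STAT3-/-PD-1-/- CD4+ libraries. In CD8+ libraries all 3 genotypes lay between 1.12 and 1.91 CPM. Against WT it fell by 1.31 log2 units in STAT3-/-PD-1-/- CD4+ T cells (edgeR's quasi-likelihood test, adjusted p = 0.0412), while in CD8+ T cells the value was 0.18 ± 0.34. The difference between these effects was 1.5 ± 0.43 log2 units and did not pass (adjusted p = 0.452). Dnajc9, a histone chaperone as well as a J-domain protein, had 84.8 and 66.9 CPM in WT, 98.2 and 89 in STAT3-/- and 116 and 118 in STAT3-/-PD-1-/- CD4+ libraries, 3 steps without overlap. It rose against WT by 0.62 log2 units (edgeR's quasi-likelihood test, adjusted p = 0.0468).

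Dnajc12, a J-domain protein best known as a cofactor of aromatic amino acid hydroxylases, was low in all groups but differed in CD8+ T cells. It had 2.35 and 2.50 CPM in WT, 1.42 and 1.48 in STAT3-/- and 4.97 and 5.76 in STAT3-/-PD-1-/- CD8+ libraries. In CD4+ libraries it had 2.01 and 2.41, 2.88 and 1.78, and 2.94 and 3.82 CPM. It rose in STAT3-/-PD-1-/- CD8+ T cells by 1.14 log2 units against WT and 1.88 against STAT3-/- (edgeR's quasi-likelihood test, adjusted p = 0.0232 and 0.00786). Dnajc1, a membrane J-domain protein of the ER, had 115 and 116 CPM in WT, 112 and 122 in STAT3-/- and 84.8 and 72.9 in STAT3-/-PD-1-/- CD8+ libraries. It fell by 0.55 log2 units against WT and by 0.57 against STAT3-/- (edgeR's quasi-likelihood test, adjusted p = 0.0264 and 0.0252). The ribosome-associated Dnajc2 had 0.44 ± 0.13 and 0.41 ± 0.13 in the CD8+ comparisons with WT and STAT3-/- and did not pass (edgeR's quasi-likelihood test, adjusted p = 0.0552 and 0.0678), while DESeq2 called it as higher in both. Among the general HSP70 partners, Dnajb1 had fold changes of -0.14 and -0.09, Dnaja1 of -0.40 and -0.32, and Dnaja2 of 0.17 and 0.17, against WT in CD4+ and CD8+ T cells, and none passed. The genes with an Hspb name and enough counts, Hspb6 and Hspb11, were grouped by name alone. They had 2.66 to 9.28 CPM over the 12 libraries, and neither passed in any of the 6 comparisons.

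Among the ER chaperones, the replicates of a group differed widely for some genes. Hspa5 (BiP) had 1276 and 579 CPM in WT replicates 1 and 2, 1228 and 571 in STAT3-/- and 946 and 718 in STAT3-/-PD-1-/- CD4+ libraries. CD8+ libraries had 1074 and 525, 1116 and 606, and 836 and 663 CPM. Replicate 1 was the higher library in all 6 groups. The log2 fold change against WT was -0.16 ± 0.43 in the CD4+ subset and -0.09 ± 0.38 in the CD8+ subset and did not pass. Dnajb9 (ERdj4), a J-domain partner of BiP and a target of the unfolded protein response, had 90.6 and 27.8 CPM in WT, 107 and 28.8 in STAT3-/- and 37.2 and 20.4 in STAT3-/-PD-1-/- CD4+ libraries. The CD8+ groups had 85.2 and 26.1, 80.1 and 26.7, and 32.6 and 14.2 CPM. Within each replicate number the STAT3-/-PD-1-/- library was the lowest of its subset. The fold change against WT was -1.04 ± 0.70 in CD4+ T cells (edgeR's quasi-likelihood test, adjusted p = 0.377), and with the replicate number as a block it was -0.85 ± 0.23 (adjusted p = 0.0312). In CD8+ T cells it was -1.25 ± 0.69 without the block (edgeR's quasi-likelihood test, adjusted p = 0.253), and the difference from WT within replicates 1 and 2 was -1.36 and -0.84 log2 units. With the block Dnajb9 passed as lower against WT and STAT3-/- in CD8+ T cells too (24.7% and 24.4% of all genes passed). No pairing was assumed for the CD8+ libraries, however.

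Dnajc3 (p58IPK), which carries the same ER stress response element as Hspa5, had 256 and 232 CPM in WT, 244 and 249.8 in STAT3-/- and 224 and 215 in STAT3-/-PD-1-/- CD4+ libraries. STAT3-/-PD-1-/- libraries were below the others without overlap in both subsets, at log2 fold changes against WT of -0.15 ± 0.14 and -0.21 ± 0.13, which did not pass. Its replicates did not show the difference seen in Hspa5. Dnajb11 (ERdj3) had 0.15 and 0.18 and Hspa13 -0.06 and 0.10 in CD4+ and CD8+ T cells, and neither passed. Without the block, 1 of the 10 ER members fell against WT in each subset, Dnajb14 in CD4+ and Dnajc1 in CD8+ T cells. Dnajc1 also fell against STAT3-/- in CD8+ T cells (8.05% of all genes did), and 0 rose in any of the 4 STAT3-/-PD-1-/- comparisons. Of all genes, 5.65% fell and 7.21% rose against WT in CD4+ and 8.21% and 9.01% in CD8+ T cells. With the block, Dnajb14 and Dnajb9 passed as lower against WT in CD4+ T cells, and Dnajb9 and Dnajc1 against STAT3-/- (background 26% in both). The median of the 10 ER members was -0.16 against WT in the CD4+ subset and -0.05 in the CD8+ subset, and without WT CD4+ replicate 1 the former became 0.021.

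On a list of 22 other folding genes of the ER, 5 rose against WT in CD4+ and 7 in CD8+ T cells of STAT3-/-PD-1-/- donors, 4 and 5 rose against STAT3-/-, and 0 fell. The shares were 22.7% and 31.8% against WT (12.9% and 17.2% of all genes) and 18.2% and 22.7% against STAT3-/- (11.1% and 16.8% of all genes). The disulfide isomerase Pdia6 and Sil1, the nucleotide exchange factor of BiP, passed in all 4 comparisons. Against WT, Pdia6 rose by 0.91 and 0.91 log2 units and Sil1 by 0.73 and 0.82 in CD4+ and CD8+ T cells. Hsp90b1 (GRP94) rose against WT in CD8+ T cells by 0.55 log2 units and had 0.66 ± 0.21 in CD4+ T cells (edgeR's quasi-likelihood test, adjusted p = 0.0149 and 0.083). Calnexin (Canx), a lectin chaperone of the ER membrane, rose against WT in both subsets, by 0.68 and 0.58. The median of the list was 0.34 against WT in the CD4+ subset and 0.41 in the CD8+ subset.

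The difference between replicate numbers reached beyond the ER. Replicate 1 was higher than replicate 2 in all 6 groups for 10 of the 61 members, where 8.53% of all genes were, and lower in all 6 groups for 6 members, where 11.7% of all genes were. The median difference over the 6 groups was 1.61 log2 units for Dnajb9, 1.19 for Dnajb4, 0.96 for Hspa5, 0.83 for Dnaja1, 0.69 for Hspa2 and 0.57 for Hspa13. Hsph1 and Dnajb1 differed in the same direction, by 0.34 and 0.38. All 8 TRiC subunits were higher in replicate 1 of the WT and STAT3-/- CD4+ groups and of the STAT3-/- CD8+ group, and all 8 were lower in replicate 1 of both STAT3-/-PD-1-/- groups. The sources used here do not tie the replicate number by name to an experiment or batch, although the methods speak of batches of pooled mice for T cell receptor sequencing and combined replicate experiments are mentioned. Immediate early genes moved with it. The 12 listed genes summed to 4376, 4177 and 1914 CPM in replicate 1 of WT, STAT3-/- and STAT3-/-PD-1-/- CD4+ T cells, and to 1825, 1584 and 924 CPM in replicate 2. In CD8+ T cells the sums were 2997, 2951 and 1341 CPM in replicate 1 and 962, 1042 and 701 CPM in replicate 2. Junb or Jund was the most abundant gene of the list and none was at 0. The part of these genes in the differences of the chaperones was not tested.

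**Figure D5:**
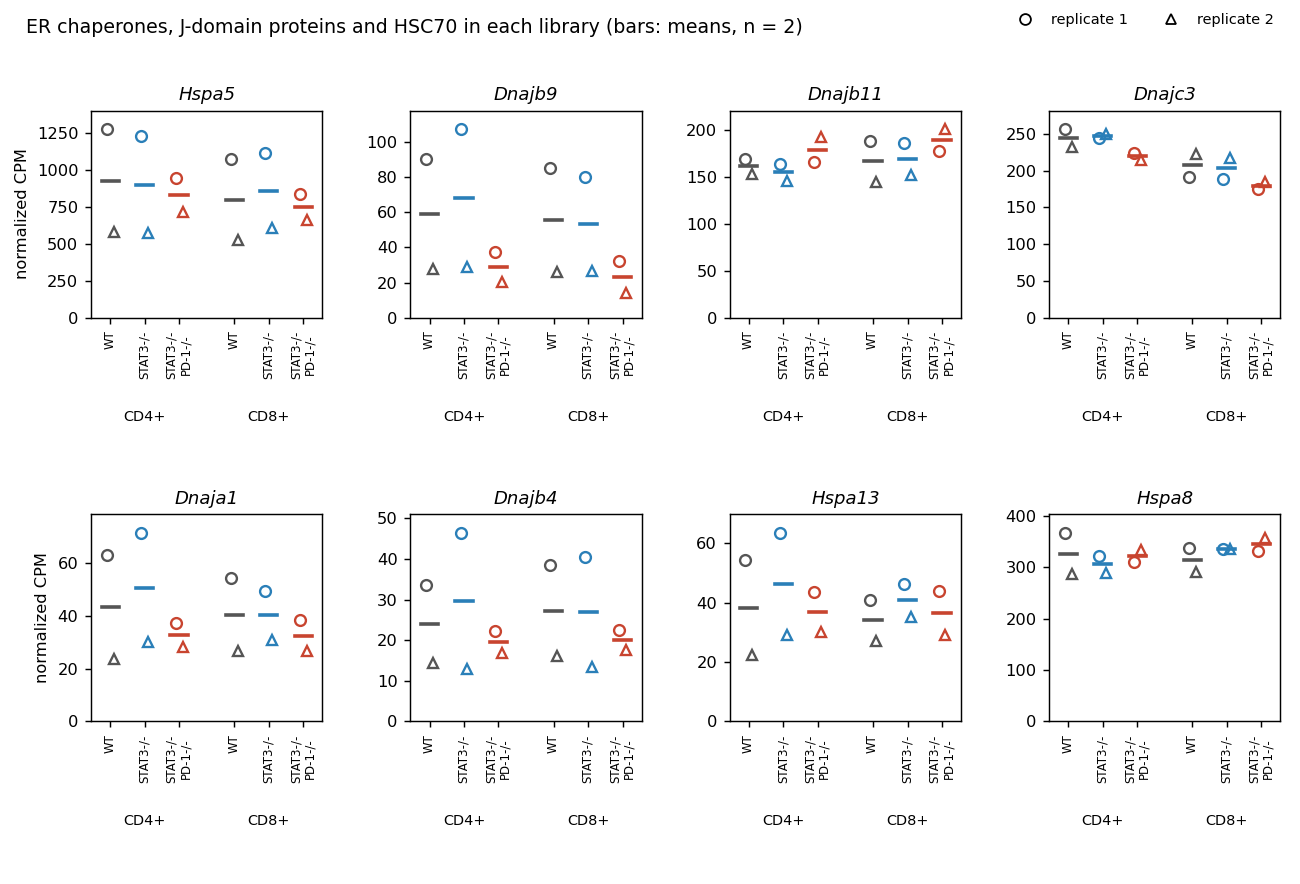
Normalized CPM (y axis, from 0) of the ER genes Hspa5, Dnajb9, Dnajb11, Dnajc3 and Hspa13 and of Dnaja1, Dnajb4 and Hspa8 in each library, by genotype and subset (x axis). Circles are replicate 1, triangles replicate 2 and bars group means. For Hspa5, Dnajb9, Dnaja1, Dnajb4 and Hspa13 the circle is above the triangle in all 6 groups, as for Hspa5 in WT CD4+ T cells with 1276 and 579 CPM.

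CD8+ and CD4+ T cells were compared with the 3 genotypes averaged. In this comparison 14 members passed, 9 higher and 5 lower in CD8+ T cells, where 25.5% of 12334 genes passed (12.9% higher and 12.6% lower). With the genotype and replicate number together as a block, which pairs the CD4+ and CD8+ libraries of one pool, 26 passed (19 higher and 7 lower, background 45.3%). The count of members fell most without STAT3-/- CD8+ replicate 1, WT CD8+ replicate 1, or replicate 2 of WT or STAT3-/- CD4+ T cells. The number of all genes that passed fell in these fits as well, by a smaller part. Dnajc6 had 3.93 to 5.32 CPM in the CD4+ libraries and 0.533 to 1.45 CPM in the CD8+ libraries, and had a log2 difference of -2.32 ± 0.15 in CD8+ against CD4+ T cells (edgeR's quasi-likelihood test, adjusted p = 4.06e-06). Dnajb14, at -1.10 ± 0.18, and Dnajc4, at -0.64 ± 0.14, were lower too. Dnaja4 (0.80 ± 0.19), Dnajc9 (0.65 ± 0.09), Hsph1 (0.52 ± 0.15), Hspd1 (0.42 ± 0.12) and Tcp1 (0.30 ± 0.08) were higher in CD8+ T cells. All 8 TRiC subunits had a positive difference, of 0.11 to 0.30 log2 units, and Tcp1 and Cct8 passed. Of the 10 ER members, 9 had a negative difference, with a median of -0.18, and Dnajb14, Dnajc3 and Dnajc14 passed as lower.

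An interaction term over the 12 libraries tested whether genotype effects differed between CD4+ and CD8+ T cells. None of the members passed for STAT3-/-PD-1-/- against WT, where 1 of 12334 genes did (0.00811%), or for STAT3-/- against WT, where 0 did (edgeR's quasi-likelihood test, and DESeq2 called 0 members as well). At an unadjusted p under 0.05, Dnajb14 and Dnajc6 passed the former, as did 547 of 12334 genes in all. With genotype and replicate number together as a block, 0 members passed in either. Of all genes, 84 (0.681%) then passed for STAT3-/-PD-1-/- against WT and 0 for STAT3-/- against WT. Calls of Cct4, Cct8 or Hspe1 in CD8+ but not in CD4+ T cells are therefore not shown to be differences between the subsets.

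Proliferation genes were also higher in STAT3-/-PD-1-/- T cells than in WT. Of 16 listed genes, 14 rose against WT in CD4+ and 8 in CD8+ T cells of STAT3-/-PD-1-/- donors, and 8 and 1 against STAT3-/-. These were 87.5% and 50% against WT (12.9% and 17.2% of all genes) and 50% and 6.25% against STAT3-/- (11.1% and 16.8% of all genes). In STAT3-/- against WT T cells, all 16 had a positive fold change in each subset and 0 passed (edgeR's quasi-likelihood test). At an unadjusted p under 0.05, 1 of them passed in CD4+ and 7 in CD8+ T cells, beside 1259 of 11959 and 1315 of 12002 genes. The summed level of the 16 listed genes in WT, STAT3-/- and STAT3-/-PD-1-/- CD4+ T cells was 4920, 5647 and 7941 CPM in replicate 1 and 3897, 5002 and 7671 CPM in replicate 2. In CD8+ T cells it was 7090, 8925 and 9331 CPM in replicate 1 and 5806, 8037 and 8972 CPM in replicate 2, with Mki67 as the most abundant gene throughout and none at 0. T cell markers had lower sums in the libraries of STAT3-/-PD-1-/- donors. In CD4+ T cells the 10 markers summed to 7400 and 7154 CPM in WT, 6814 and 6969 in STAT3-/- and 6105 and 5960 in STAT3-/-PD-1-/- libraries, led by Cd4 or Thy1, with none at 0, and Cd4 alone fell against WT (5.65% of all genes did). The 10 markers summed to 7732 and 7882 CPM in WT, 7061 and 7685 in STAT3-/- and 5322 and 5467 in STAT3-/-PD-1-/- CD8+ T cells, with Thy1 as the most abundant and none at 0, and 5 fell against WT (8.21% of all genes did). The NK cell list had sums of 2286 and 2120 CPM in WT, 959 and 1203 in STAT3-/- and 645 and 493 in STAT3-/-PD-1-/- CD8+ T cells, led by Gzma, a granzyme that CD8+ T cells express too. Of the 4 NK genes tested, Gzma, Klre1 and Klrb1c fell against WT. In CD4+ T cells the NK sums were 373 and 245 CPM in WT, 184 and 142 in STAT3-/- and 121 and 115 in STAT3-/-PD-1-/- libraries, and against WT Gzma fell and Eomes rose. The part of these changes in the differences of the chaperones was not tested.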

How the data were processed

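RNA-Seq covered 12 libraries of sorted liver T cells, 2 per donor genotype and subset. The authors used STAR for alignment to mm10 and HTSeq-count for counting on the RefSeq annotation, and deposited raw counts. They also deposited RPKM values, which served for levels between genes and for 1 alternative test. The labels carry in addition a growth protocol of another cell type, which was disregarded.

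Tests used edgeR (version 4.0.16; R version 4.3.3) on TMM-scaled counts. The filter on low counts was filterByExpr, with a minimum count of 10 and a minimum total of 15. One model was fitted per subset (6 libraries, 3 residual degrees of freedom) and one over 12 libraries (6 residual degrees of freedom). P values of the quasi-likelihood test were adjusted by Benjamini-Hochberg over all genes, with a threshold of 0.05. Standard errors were derived from the test statistic. P values measure the spread between pools of recipients, and an exact permutation test of 2 libraries against 2 cannot go below p = 0.333, so none is given.

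Deviations of same-numbered replicates correlated between all CD4+ groups (0.659, 0.32 and 0.206) and between CD4+ and CD8+ libraries of a genotype (0.588, 0.583 and 0.646), so the number was taken to pair these libraries.

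Members, families, compartments and lists were chosen with earlier results of these data known. A rule named the main chaperones of each family, members that passed, the 5 highest and 3 lowest members, the 3 on either side of the count minimum, and up to 3 genes per list that passed with the largest fold change. Dnajb4, Dnajb5, Dnajc2, Dnajc4, Dnajc14, Canx and the carriers of STAT-like sites were chosen after their values were seen. Alternatives were DESeq2 (version 1.42.0), RLE normalization, other count filters, only the 4 libraries compared, limma (version 3.58.1) on log2(RPKM + 1), the replicate block, and leaving out each library.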

Additional observations from a re-analysis of the deposited data

How the results depend on the processing

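The number of members that passed was within 1.5 times the value reported under RLE normalization, both other count filters, only the 4 libraries compared and limma on log2(RPKM + 1), in each of the 6 comparisons and in the contrasts over 12 libraries where these were run. With DESeq2 it was 16 for STAT3-/-PD-1-/- against WT in CD8+ T cells (22.7% of all genes) and 1 for STAT3-/- against WT in CD4+ T cells (2.27% of all genes). With the replicate number as a block, it was 13 and 11 in CD4+ T cells (against WT and STAT3-/-), 17 in CD8+ T cells against WT (24.7% of all genes), 16 against STAT3-/- (24.4% of all genes), and, with genotype and number together as the block, 26 between subsets, and no gene that had passed was lost. In CD8+ T cells the replicates of STAT3-/- and STAT3-/-PD-1-/- groups correlated at 0.06 only (0.678 and 0.176 for the other pairs), so these libraries share a number and no pairing was assumed. In the CD8+ fit with the block Dnajb9 passed as lower in both comparisons, and Hspa4 and Dnajc2 as higher in both. Dnaja3, Cct5 and Hspbp1 passed as higher and Dnajc15 as lower against WT, and Cct2 as higher against STAT3-/-. Leaving out each library in turn gave 0 to 3 members against WT and 0 to 7 against STAT3-/- in CD4+, 0 to 4 and 0 to 8 in CD8+ T cells, 0 to 0 for STAT3-/- against WT and the interactions, and 7 to 16 between subsets. It also turned the sign of 5 medians of families or compartments that were larger than the spread between replicates, and moved 32 others by over that spread, while 83 moved by less. Those of the ER members ran from -0.338 to 0.021 against WT in CD4+ T cells (highest without WT replicate 1), from -0.266 to 0.118 against STAT3-/- in CD4+ T cells (highest without STAT3-/- replicate 1), and from -0.280 to 0.026 against STAT3-/- in CD8+ T cells (above 0 without STAT3-/- replicate 1 or, at 0.0094, without STAT3-/-PD-1-/- replicate 2). That of the J-domain genes ran from -0.065 to 0.0065 against WT in CD8+ T cells (highest without WT replicate 1). Named calls lost under a setting other than a left-out library were those of Dnajc9 against WT in CD4+ T cells (RLE), Hspbp1 against STAT3-/- in CD4+ T cells (4 libraries), Dnajc1 against WT in CD8+ T cells (limma), and Cct5 and Trap1 against STAT3-/- in CD8+ T cells (RLE, no count filter beyond 1 count, and 4 libraries). A fit with 1 library in a group has less power by construction. In each STAT3-/-PD-1-/- comparison, the number of all genes that passed also fell whenever a library of the groups compared was left out. The number of members fell with it, except against STAT3-/- in CD4+ T cells without STAT3-/- replicate 1. The sizes of the losses were not compared. Depth was similar in all libraries, and members near 10 counts are the least precise.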
